A study of Homo sapiens with 4 samples.

Results

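The off-target sites most similar to the guide were examined in TTISS-seq data, namely every break site of the VEGFA site 2 libraries whose best protospacer beside an NGG protospacer-adjacent motif (PAM) had 0 to 3 mismatches to the 20-nt guide. Members were chosen by sequence. In the 60-nt sequence deposited with each listed break position, both strands were searched for a protospacer whose expected cut, 3 nt from the PAM, lay within 10 nt of the centre, and among several such matches the least mismatched one counted. Positions within 30 nt of each other were merged into 1 locus. This gave 24 members, out of 606 loci listed in either VEGFA site 2 library and 689 listed in any of the 4 libraries. They comprised 1 site with 0 mismatches, 0 with 1, 2 with 2 and 21 with 3. Apart from being listed, no read count entered the choice.

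TTISS-seq marks double-strand breaks (DSBs) in living cells by joining a short double-stranded DNA tag into them, after which the transposase Tn5 cuts the genome into fragments and those next to a tag are amplified and sequenced. All 4 libraries were made from U2OS cells, a human osteosarcoma line, labelled wild type (WT). In 2 replicates the label reads digested with VEGFA site 2 sgRNA, the nuclease being Streptococcus pyogenes Cas9, and 2 non-target replicates labelled undigested served as the control. The labels do not say which guide or nuclease, if any, the non-target cells received, nor whether replicates came from separate cultures, so the p-values measure only the spread between these libraries. The listed counts summed to 2855164 and 3182992 in VEGFA site 2 replicates 1 and 2 and to 29017 and 60660 in non-target replicates 1 and 2. A listed count was taken as a number of reads at a break position, and the share of a site is its percentage of all listed counts of the library. No list gives a position at 0, and the rule by which a position entered a list is not stated, so a site missing from a list is called unlisted. In mean shares and in the count test an unlisted site was entered as 0, which is a convention and not a measured value.

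Cas9 recognises DNA by reading the PAM first and then unwinding the protospacer from the PAM-proximal end, so that the guide RNA pairs with the target strand progressively towards the PAM-distal end. Mismatches near the PAM are met early in this process and those at the far end late. Some mismatches still form a wobble pair, in which guanine pairs with uracil or thymine, and are known to distort the RNA:DNA duplex less than other mismatches. VEGFA site 2 is a cytosine-rich guide that is widely used to benchmark off-target assays because it cuts at many places.

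Mismatches are given by their position in the protospacer, counted from 1 at the PAM-distal 5′ end to 20 beside the PAM, and coordinates are those of the protospacer in hg38. A site outside protein-coding genes carries the name of the nearest protein-coding start.

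The 24 members together held 630815 counts, or 22.1% (Wilson 95% interval 22.05 to 22.14), in VEGFA site 2 replicate 1. In replicate 2 the sum was 684830 counts, a share of 21.5% (21.47 to 21.56). Non-target replicate 1 held 209 counts at these sites (0.720%, 0.629 to 0.824) and non-target replicate 2 held 540 (0.890%, 0.819 to 0.968). On average the members took 21.8% ± 0.409 of a VEGFA site 2 library and 0.805% ± 0.120 of a control library (SD, n = 2 each), a difference larger than the spread between replicates. The sites were taken from the VEGFA site 2 lists, and the difference depended on the denominator. Of the counts at loci with at most 7 mismatches alone, the members held 22.8% and 22.3% in the VEGFA site 2 libraries and 16.5% and 27.0% in the non-target libraries, whose values lay on both sides. With 2 libraries against 2, the smallest two-sided exact permutation p is 0.333, and no test of these shares is given. Intervals cover counting error only, since duplicate removal is not stated and reads amplified by PCR are not independent molecules. For comparison, the 75 loci with 4 mismatches held 41.9% ± 0.245 (SD, n = 2) of the VEGFA site 2 counts. The median mean share of a single site was 0.413% for the members and 0.148% for the loci with 4 mismatches, and the ranges overlapped widely, running from 0.00189% to 3.92% and from 0.00203% to 4.85%, respectively. The lowest mean among the members averages the only listed share of a site, 0.00378%, with 0 for the library that did not list it.

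Among the members with the highest counts were sites with 3 mismatches that all lay in positions 1 to 10, the PAM-distal part. The LAMA3 site (chr18:23779592-23779611, minus strand), in intron 11 of the gene for the laminin alpha 3 chain of basement membranes, is mismatched at positions 2, 7 and 8. It held 84856 and 88941 counts with the sgRNA and 31 and 68 counts in the control. The SPNS3 site (chr17:4455454-4455473, minus strand), in intron 8 of a gene of the spinster transporter family, is mismatched at positions 1, 8 and 9 and held 74302 and 89508 counts with the sgRNA and 31 and 78 counts in the control. The mean shares were 2.88% ± 0.126 and 2.71% ± 0.148 (SD, n = 2), respectively, and the replicates of the 2 sites overlapped.

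The next 5 members with 3 mismatches were less even in the control. The NFIX site (chr19:13011358-13011377, plus strand), in intron 1 of a gene for a transcription factor of the nuclear factor I family, is mismatched at positions 2, 8 and 16. It held 31767 and 36186 counts with the sgRNA and was in neither non-target list. The SAMD11 site (chr1:939941-939960, plus strand), in intron 7, is mismatched at positions 6, 7 and 16 and held 25181 and 28960 counts with the sgRNA and 15 and 31 counts in the control. It was therefore listed in both control libraries at a lower count with the sgRNA than the NFIX site. The MOB3B site (chr9:27338860-27338879, plus strand), in intron 3 of a gene of the MOB kinase activator family, is mismatched at positions 7, 8 and 17 and held 19339 and 23180 counts with the sgRNA and 7 and 22 counts in the control. The SOWAHD site on chromosome X, intergenic and 27069 bp from the start of that gene, is mismatched at positions 2, 5 and 8 and held 21521 and 19698 counts with the sgRNA and 18 counts in non-target replicate 2. The ATP2B3 site, in intron 21 of a plasma membrane calcium pump gene on chromosome X, is mismatched at positions 2, 11 and 16 and held 17830 and 18330 counts with the sgRNA and 14 counts in non-target replicate 2. Neither chromosome X site was in the list of non-target replicate 1. The mean shares of these 5 sites ran from 1.12% ± 0.0171 at NFIX to 0.600% ± 0.0344 at ATP2B3 (SD, n = 2).

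A further 9 members, named here after their values were seen, were listed in both VEGFA site 2 libraries at mean shares between 0.543% and 0.0378%. Among them, in descending order, were the sites at FBXO2, SPON1, SYT7, ETFBKMT, PLAAT3, PRKCA, GOSR1 and EP400. The EP400 site lies in coding exon 37 of a chromatin remodelling factor and is 1 of 2 members in coding sequence. It held 1240 and 1022 counts with the sgRNA, the latter being the lowest count of any member listed in both replicates.

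The remaining 4 members were listed in a single VEGFA site 2 library and in no non-target library, and all are intergenic. The HS6ST1 site (chr2:128530854-128530873, mismatched at positions 1, 7 and 15) held 325 counts in replicate 1, or 0.0114% (Wilson 95% interval 0.0102 to 0.0127), and the TBCA site (chr5:77973451-77973470, positions 2, 12 and 19) 108 counts, or 0.00378% (0.00313 to 0.00457). The IGLL5 site (chr22:22918018-22918037, positions 9, 16 and 20) held 357 counts in replicate 2, or 0.0112% (0.0101 to 0.0124), and the HERC4 site (chr10:68079112-68079131, positions 6, 9 and 15) 265 counts, or 0.00833% (0.00738 to 0.00939). None of the 4 reached the lowest count of the 20 members that both replicates listed, which lay between 1022 and 118464.

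The replicates ranked the 20 shared members nearly alike. Their counts differed by at most 1.21-fold between replicates 1 and 2, with a median of 1.10-fold. Pearson's r of log10 counts was 0.998 and Spearman's rho 0.997 across these 20 sites, which share their libraries and are not independent replicates, so that no p is given. When the 20 sites were ordered by mean share, the replicate values of neighbours overlapped in 4 of 19 neighbouring pairs (LAMA3 and SPNS3, MOB3B and SOWAHD, SOWAHD and ATP2B3, GOSR1 and EP400). In the other neighbouring pairs both replicate shares of the higher site exceeded those of the lower one.

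The position of the mismatches was then compared between listed sites and the unlisted sites of the reference genome. Whether U2OS cells carry each unlisted site with this sequence was not tested. The hg38 genome (chromosomes 1 to 22, X and Y) holds 38 NGG-flanked protospacers with up to 3 mismatches, of which 24 (63.2%, Wilson 95% interval 47.3 to 76.6) were members. The only site with 0 mismatches and both with 2 mismatches were listed, as were 21 of 35 with 3 mismatches (60%, 43.6 to 74.4). Sites are not replicates, and the differences between listed and unlisted sites are given as counts without a test. The nearest listed position of any library lay at least 23587 nt from each of the 14 unlisted sites. For each of the 35 sites with 3 mismatches, the 60-nt sequence around the expected cut occurs once in the genome.

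Sites with 3 mismatches were then grouped by how many of these fell in positions 11 to 20, the PAM-proximal part, and the listed fraction was lower in each group than in the one before, which was not tested. In the groups with 1 and 2 PAM-proximal mismatches the means include sites listed in a single library, with 0 for the other. All 5 sites with 0 PAM-proximal mismatches were listed in both VEGFA site 2 libraries, with a median mean share of 2.71% and a range of 0.155% to 3.92%. Of 12 sites with 1 PAM-proximal mismatch, 10 were listed, 8 of them in both libraries, with a median of 0.210% (0.00416% to 1.12%). Of 14 sites with 2 PAM-proximal mismatches, 6 were listed, 4 of them in both libraries, with a median of 0.0674% (0.00189% to 0.600%). None of the 4 sites with 3 PAM-proximal mismatches was listed. The ranges of neighbouring classes overlapped, and the ETFBKMT site, mismatched at positions 3, 5 and 6, held 4571 and 4764 counts with the sgRNA, fewer than 7 members that have 3 mismatches with at least 1 of them PAM-proximal. The 6 members whose 2 or 3 mismatches were all PAM-distal held 62.7% and 61.3% of the members' counts in VEGFA site 2 replicates 1 and 2.

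Over the 23 members with mismatches, 44 substitutions were PAM-distal and 23 PAM-proximal, a mean of 1.91 against 1.00 per site and a mean difference of 0.913 (SD 1.44 across sites). At the 14 unlisted sites the order was turned around, with 12 PAM-distal and 30 PAM-proximal substitutions and a mean difference of −1.29 (SD 1.33 across sites). The following unlisted sites were named after the lists had been compared. The sites in introns of SPTLC1 (chr9:92059937-92059956, mismatched at positions 16, 17 and 20), CROCC2 (chr2:240992765-240992784, positions 15, 16 and 18) and ODAD1 (chr19:48318671-48318690, positions 11, 16 and 17) have 0 PAM-distal mismatches. The AFG3L2 site (chr18:12376928-12376947) and the intergenic site nearest to CCDC167 (chr6:37558190-37558209) have 2 PAM-distal mismatches and a single PAM-proximal one, against the order of the unlisted sites as a whole. The latter mismatch lies at position 15 in the AFG3L2 site and at position 13 in the CCDC167 site, which is also mismatched at position 10.

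Single positions differed in how many of their genomic sites were listed. At position 8, 10 of the 11 genomic sites mismatched there were members, and all 10 were listed in both replicates. All 5 sites mismatched at position 6 and all 3 mismatched at position 3 were members. At position 15, by contrast, 2 of 9 were members, and both, HS6ST1 and HERC4, were listed in a single replicate. None of the 3 sites mismatched at position 14 and neither of the 2 mismatched at position 10 was listed. The PAM-proximal part was not uniform. At position 16, 5 of 9 were members with shares up to 1.12%. At position 19, 6 of 8 were members, with shares up to 0.283% among those with 3 mismatches. At position 11, 4 of 9 were members, all 4 listed in both replicates. These counts are small, and a site enters the count of each of its mismatched positions.

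The kind of substitution also varied. The members carried 67 substitutions, 29 of them transitions (43.3%) and 38 transversions, and the unlisted sites 42, with 14 transitions (33.3%) and 28 transversions. Thymine to cytosine, which faces the guide's uracil with guanine (rU:dG), was the most frequent change at the members with 12 occurrences, against 1 at the unlisted sites. Guanine to adenine (rG:dT) occurred 6 times at the members and 2 times at the unlisted sites. These wobble pairs made up 18 of 67 substitutions (26.9%) at the members and 3 of 42 (7.14%) at the unlisted sites, and 15 of 23 members with mismatches had at least 1 of them. Position and kind of change cannot be told apart for most of these, because thymine and guanine stand at few positions of the guide. Changes of cytosine numbered 28 of the 67 substitutions at the members and 24 of 42 at the unlisted sites.

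In some cases the protospacers of a member and of a locus with 4 mismatches differed by a single added substitution, at different genomic places. The NFIX site exceeded a locus in LRP1 with a mismatch at position 4 added by 7.17-fold and 8.12-fold in replicates 1 and 2, and a locus in TBC1D22A with one at position 19 added by 11.9-fold and 13.1-fold. The EP400 site and a locus in CCNE1 with one at position 2 added showed no steady order, with ratios of 1.04 and 0.653. The GOSR1 site exceeded a locus in LRRC37B with one at position 16 added by 1.47-fold and 2.05-fold, with an AGG PAM at both. Not every such pair is given here. Both NFIX pairs also differ in the first PAM base, which is G at NFIX, A at the LRP1 locus and C at the TBC1D22A locus. The sites of a pair differ in their surroundings as well, and the part of the added substitution in these differences was not tested.

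The PAM base and the strand were recorded as well. The first PAM base was T at 9 members, A at 8, C at 6 and G at 1. Of the 38 genomic sites, all 6 with CGG were members, 8 of 11 with AGG, 9 of 17 with TGG and 1 of 4 with GGG, the last being the NFIX site. The median mean share was 1.16% with CGG (0.0557% to 3.92%), 0.543% with TGG (0.00189% to 3.17%) and 0.0674% with AGG (0.00416% to 0.896%). The PAM base does not vary independently of the mismatches. Of the members, 4 of 6 with CGG and 8 of 9 with TGG have 3 mismatches, as do all 8 with AGG. The rest with CGG or TGG have fewer, so these medians mix numbers of mismatches. Of the members, 13 lay on the plus and 11 on the minus strand, against 7 and 7 of the unlisted sites, and the ranges of shares overlapped across nearly their whole width. GC content of the 60 nt around the cut had a median of 61.7% (48.3 to 88.3) at the members with mismatches and of 64.2% (48.3 to 78.3) at the unlisted sites.

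Break positions clustered tightly at the expected cut. Each list held a single position per member. In VEGFA site 2 replicate 1 it fell on the expected cut at 10 of 22 listed members, 1 nt towards the PAM at 5 and 1 nt away from the PAM at 7. In replicate 2 it fell on the expected cut at 12 of 22, 1 nt towards the PAM at 6, 2 nt towards the PAM at 1 (the PLAAT3 site, named after its value was seen) and 1 nt away at 3. The replicates gave the same position at 12 of the 20 shared members, so a difference of 1 nt at a single site is within the replicate spread. By annotation, 13 members lay in introns, 2 in coding exons, 2 within genes but outside their canonical transcript and 7 in intergenic sequence. Within 1000 bp of a protein-coding start lay 4 members, among them the FBXO2, ETFBKMT and PRKCA sites.

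The control libraries were examined at the same sites. Of the 24 members, 14 (58.3%) were in at least 1 non-target list, against 122 of all 606 loci of the VEGFA site 2 libraries (20.1%) and 29 of the 75 loci with 4 mismatches (38.7%). Non-target replicate 1 listed 9 members and replicate 2 listed 14, including all 9. Relative to the mean VEGFA site 2 count of the site, the count in non-target replicate 1 ranged from 0.0286% to 0.117% with a median of 0.0377% over 9 members, and in replicate 2 from 0.0586% to 0.129% with a median of 0.0865% over 14 members. The highest value in replicate 1 belonged to the SPON1 site, with 10 counts in the control and 8339 and 8738 counts with the sgRNA, and the next highest was 0.0554% at SAMD11. The loci with 4 to 7 mismatches that these libraries listed had similar medians of 0.0421% and 0.0927%. How these counts arose was not tested.

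The NFIX site departed from this pattern in both control libraries. At the median ratios of the members that each control library listed, it would have held 12.8 counts in non-target replicate 1 and 29.4 in replicate 2. Neither library listed it, although all 6 members above it and the SAMD11 and MOB3B sites below it were in both lists. A further 5 sites, PLAAT3, PRKCA, GOSR1 and EP400 among them, were unlisted in the control while present in both sgRNA replicates. For these 5 sites the same ratios would have given at most 1.55 counts in non-target replicate 1 and 3.56 in replicate 2, where the lowest listed counts of any site were 2 and 1. Absence from non-target replicate 1 alone was not particular to NFIX. The SOWAHD, ATP2B3 and FBXO2 sites were unlisted there too, where the ratio would have given 7.76, 6.81 and 6.16 counts.

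Counts were finally tested between the groups with edgeR's quasi-likelihood test across all 689 loci, taking the sum of listed counts as library size. Of the 24 members, 14 were called higher with the sgRNA at a Benjamini-Hochberg adjusted p under 0.05 (adjusted p from 0.0309 to 0.0346) and 0 lower, where 26.6% of all loci were called higher. Over the 606 loci of the VEGFA site 2 libraries the share was 30.2%. All members had to be listed with the sgRNA, so a call in this direction is given as a description. For the 75 loci with 4 mismatches the number was 50 (66.7%), a larger share than the 58.3% of the members. The 14 comprised 8 members listed in both control libraries, LAMA3, SPNS3, SAMD11 and MOB3B among them, with log2 fold changes from 4.12 to 4.79 and an edgeR adjusted p of 0.0309 each. The other 6, including NFIX, PLAAT3, PRKCA, GOSR1 and EP400, were in no control list, so no fold is given. Their calls rest on the 0 entered for unlisted positions. For all of them but NFIX the counts at the median ratio were at most 1.55 in non-target replicate 1 and 3.56 in replicate 2. The lowest listed counts there were 2 and 1. The SPON1 site, with 10 and 5 counts in the control, had a log2 fold change of 3.74 and was not called (edgeR adjusted p = 0.0845). The 5 members listed in non-target replicate 2 alone had log2 fold changes of 4.87 to 5.74 and were not called either (edgeR adjusted p from 0.162 to 0.209). These folds rest in part on the 0 entered for non-target replicate 1, and without that library they were 3.97 to 4.78. The 4 single-replicate members had edgeR adjusted p of 0.501 to 0.554.

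These calls depended on the scaling and on further settings given below. With TMM factors 0% of all loci and 0 members were called higher by edgeR (4 members at an unadjusted p under 0.05). With DESeq2 5.22% of loci and 2 members were called, NFIX (DESeq2 adjusted p = 7.71e-06) and PLAAT3 (DESeq2 adjusted p = 0.0235). Both were in no control list, so these calls too rest on the 0 entered for unlisted positions. The median log2 fold change of the 63 loci listed in all 4 libraries was 4.46 with total counts, 0.12 with TMM factors and 0.03 in DESeq2, and that of the 9 members among them 4.54, 0.20 and 0.10. DESeq2 takes its size factors from the loci without a 0, which are these 63, so its median near 0 is set by the scaling. TMM factors likewise rest on loci listed in both libraries compared. These loci are not a background free of cutting. Of the VEGFA site 2 loci, 65 were in both non-target lists, 51 of them with at most 7 mismatches. The members' median lay close to that of the 63 loci, which include them, under each scaling. Leaving out a library left its group with a lone library, so only fold changes are given. For the 8 called members listed in both control libraries, the log2 fold change was 4.15 to 4.79 without VEGFA site 2 replicate 1. Without VEGFA site 2 replicate 2 it was 4.10 to 4.79. Without non-target replicates 1 and 2 in turn it was 4.13 to 4.68 and 4.12 to 5.07. In each of these fits the lone library was assumed to vary like those of the other group. The other group alone gave the spread, so no calls are given.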

How the data were processed

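The authors deposited, for each of the 4 TTISS-seq libraries, a list of break positions with a whole-number count and the surrounding 60-nt sequence. The deposited counts were used as raw read counts, since they are whole numbers with different sums per library. The submitters' processing notes name hg38; the aligner, duplicate removal and the rule for listing a position are not given in the sources used here. Of 1223 listed sequences, 1222 stood at their listed position in hg38, with the position being the base left of the break.

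The guide was read from the study's list of guides. Loci, matches and shares were computed with Python 3.11.15 (numpy 2.4.6, pandas 2.3.3, numba 0.67.0), Wilson intervals with scipy 1.17.1, and genes were taken from GENCODE release 44. Genomic protospacers were listed by scanning hg38. Counts of all 689 loci were tested with edgeR 4.0.16 (R 4.3.3; quasi-likelihood test, two-sided, unlisted positions entered as 0), with DESeq2 1.42.0 as an alternative. An adjusted p that DESeq2 left undefined (4 members) stayed undefined.

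The matching and scanning steps recovered every site implanted in simulated sequence. For the count test of VEGFA site 2 against non-target libraries, 689 loci were simulated with 200 changed 64-fold, of which 34.5% were called in the right direction, 0 in the wrong direction, while 2 unchanged loci were called.

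Named sites were all members with 0 to 2 mismatches, the 8 highest and 4 lowest members with 3 mismatches, and those in a single VEGFA site 2 library. Sequences, and the results of some of these sites, are not reported here. Members, lists and tests were chosen with earlier results of these data known.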

Additional observations from a re-analysis of the deposited data

How the results depend on the processing

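The number of members was 24 with merging within 5 nt, with an expected cut within 3 nt of the centre and with positions of at least 10 counts, 20 when both VEGFA site 2 libraries had to list a site, and 22 without either replicate. Of the genomic sites with up to 3 mismatches 52.6% were listed in both VEGFA site 2 libraries and 57.9% without either replicate, and with NGG or NAG PAMs 29 of 73 sites (39.7%) were listed in either. The mean difference of PAM-distal and PAM-proximal mismatches stayed between 0.913 and 1.11. The share of counts held by the members differed between the groups by 21 percentage points, and by 20.7 to 21.3 when libraries were left out in turn. Over the counts of loci with at most 7 mismatches alone it differed by 0.813 points (22.6% against 21.8%, with 16.5% and 27.0% in the 2 non-target libraries, so no direction can be read), where such loci held 96.6% of the VEGFA site 2 counts and 3.83% of the non-target counts.

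Members called higher numbered 14 in edgeR with total counts, 0 with TMM factors, 2 with DESeq2 and 14 with merging within 5 nt. Of all loci, 26.6%, 0%, 5.22% and 23.6% were called higher in these settings, respectively. With loci of at least 10 counts in at least 2 libraries it was 19 of 20 members tested, where 84.3% of the 351 loci kept were called higher. The VEGFA site 2 libraries alone could meet that filter, so the 19 is given as a description. For fits with a library left out no calls are given, since the lone library was assumed to vary like the other group. With the replicate number as a block edgeR called 0 members (10 at an unadjusted p under 0.05, lowest adjusted p = 0.0663). Labels do not say that equal numbers share a batch, and the replicate differences of the 2 groups correlated at 0.133 over 63 loci, so the libraries are treated as sharing only a number. The log2 fold change turned to −0.23 with TMM factors and −0.27 in DESeq2 at SAMD11 and to −0.62 and −0.58 at SPON1. These scalings rest on loci listed in the libraries compared, and so moved the median of the 63 loci listed in all libraries from 4.46 to 0.12 and 0.03. Both sites lay below that median with total counts too. At the other 12 members with a control count the log2 fold change fell to between 0.12 and 1.40 with TMM factors (lowest edgeR adjusted p = 0.851) and between 0.03 and 1.27 in DESeq2 (lowest adjusted p = 0.403). Control counts of 5 to 100 per member limit how finely the ratios can be read.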
